A study of Mus musculus with 12 samples.

Results

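The genes of the voltage-gated calcium and sodium channels were followed through 12 RNA-sequencing libraries of the striatum of C57BL/6J mice. A gene was included when it is protein-coding, its symbol begins with Cacna, Cacnb or Cacng or is an Scn number with the letter a or b, and at least 3 libraries held 10 or more counts of it. Of 54532 genes in the tables, 40 carried such a symbol and 35 met the count minimum. They comprised 9 α1 pore subunits, 4 α2δ subunits, 4 β subunits and 7 γ-family members of the calcium channels, and 7 α pore subunits and 4 β subunits of the sodium channels. The 5 genes left out were Cacna1s, Scn4a, Scn10a, Scn11a and Cacng6. Near the minimum, Cacna1f reached 10 counts in 4 libraries and was kept, whereas Cacng6 reached it in 2 and Cacna1s in 1.

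The libraries formed 4 groups of 3. The 3d-SN011 and SN011 groups both had transient middle cerebral artery occlusion, in which the artery that feeds the striatum is blocked and reopened, together with SN-011, an inhibitor of the innate immune adaptor STING. The vehicle group had the occlusion with phosphate-buffered saline, and the sham group had a sham operation with phosphate-buffered saline. Both SN-011 groups carry one treatment label, and the meaning of 3d is not explained in it. No vehicle or sham library carries that prefix, so whatever 3d denotes cannot be told apart from the drug in comparisons of 3d-SN011 with vehicle or sham. Age, sex and the time of sampling are not in the labels. Nothing there ties the libraries of a group to different animals, so the p-values speak for the spread among these samples, which may be technical.

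Voltage-gated calcium and sodium channels open when the membrane is depolarised. Sodium channels carry the rising phase of the action potential, and calcium channels turn depolarisation into calcium entry that drives transmitter release, dendritic signalling and gene expression. In both families a large pore-forming subunit is joined by smaller auxiliary subunits that set its traffic to the membrane and its gating, while most γ-family members serve AMPA receptors instead. In the striatum, most neurons are spiny projection neurons, in which the sodium channel β4 subunit encoded by Scn4b is abundant.

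Totals ranged from 15806076 to 18622053 counts per library. The 35 channel genes together took 0.124% to 0.231% of counts in the 3d-SN011 libraries, 0.476% to 0.693% in SN011, 0.669% to 0.691% in vehicle and 0.681% to 0.708% in sham. The 3d-SN011 libraries stood apart from the other 9 and differed most among themselves, with a chi-square over degrees of freedom of 47.2 to 78.2 between replicates against 4.79 to 57.3 in the other groups. SN011 replicate 3 lay between the 3d-SN011 libraries and the rest. Levels are given as CPM, counts scaled to the library total with TMM factors, and comparisons of levels between genes as CPM per kb of exon. The exon length counts each base in any annotated exon of a gene once, so rankings per kb depend on the annotation. Changes are log2 fold changes with their standard errors from edgeR's quasi-likelihood test, fitted to all 12 libraries and adjusted over the 18537 genes tested, and a gene was called at an adjusted p under 0.05. All 35 channel genes were tested, and 34 of them reached 10 counts in at least 1 library of every group.

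Most of the channel genes were lower in 3d-SN011 than in vehicle striatum. By edgeR's quasi-likelihood test 27 of 35 fell, 0 rose and 8 were not called, where 28.2% of all genes tested fell and 28.9% rose. Of the 35, 29 reached an unadjusted p under 0.05 by edgeR, where 11458 of the 18537 genes tested did. DESeq2 also called 0 of the 35 higher. The median log2 fold change of the 35 was -1.86, against 0.0093 over all genes. Those that fell were 7 of 9 calcium channel α1 genes, 3 of 4 α2δ genes, 4 of 4 β genes and 6 of 7 γ-family genes, and 4 of 7 sodium channel α genes and 3 of 4 β genes. In tissue RNA, fewer cells of a type and less RNA per cell cannot be told apart. Neuronal markers were lower in the same libraries: 11 of 12 pan-neuronal genes and 14 of 14 striatal projection neuron genes fell, with medians of -1.65 and -2.71. Summed over the pan-neuronal list, the level ranged over 1241 to 2080 CPM in 3d-SN011 and 5102 to 5324 CPM in vehicle, and over the projection neuron list 576 to 2937 CPM and 11999 to 12497 CPM, with no marker at 0 in either group. All 8 microglia and macrophage genes and 7 of 8 astrocyte genes rose, with medians of 3.15 and 1.39. Of the other cell type lists, 5 of 6 oligodendrocyte, 6 of 6 oligodendrocyte precursor, 5 of 6 endothelial, 3 of 6 mural, 3 of 6 thalamic and 3 of 6 Schwann cell genes rose and 0 fell. Of 10 striatal interneuron genes 5 fell and 0 rose, of 8 cortical projection neuron genes 1 fell and 1 rose, and of 6 choroid plexus and ependyma genes 3 fell and 2 rose. Of the lymphocyte and skeletal muscle lists 4 and 3 genes were tested, and in each 1 fell and 2 rose. The part of these shifts in the channel values was not tested.

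**Figure D1:**
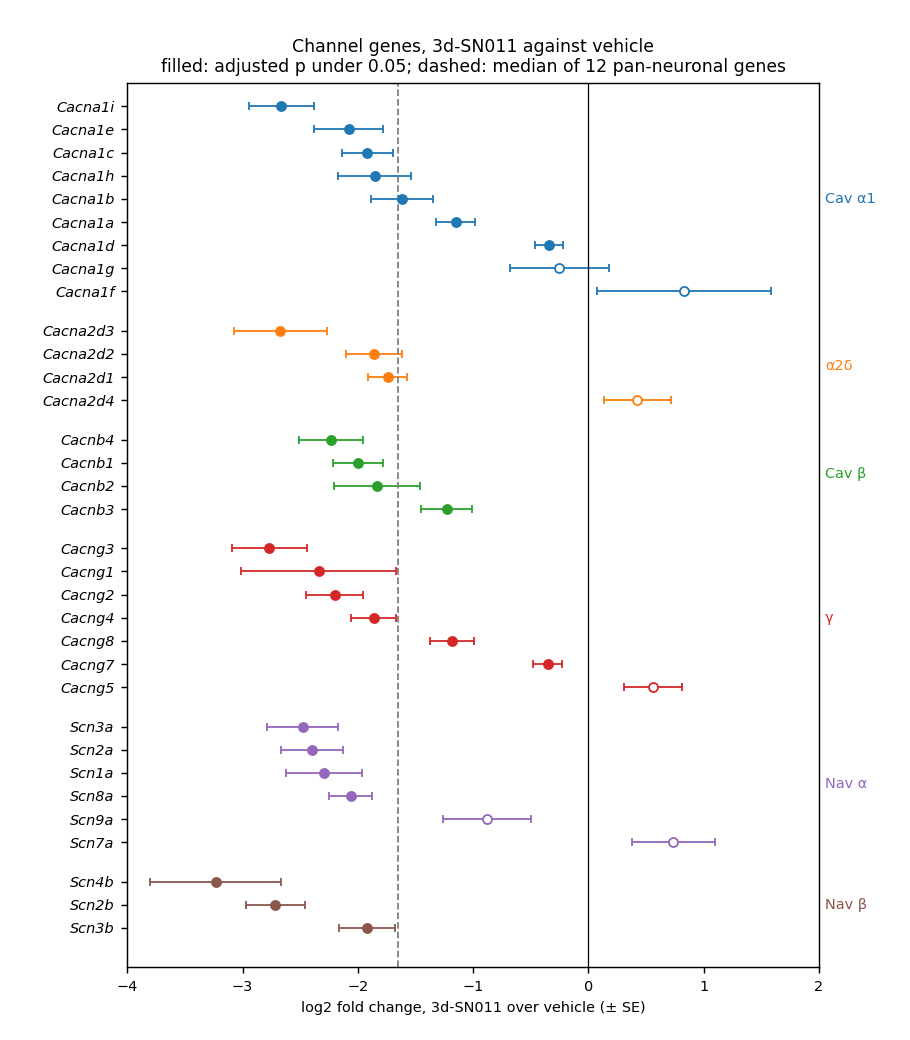
Log2 fold changes (± SE) of 33 channel genes in 3d-SN011 over vehicle striatum, grouped by subfamily and ordered within it. Filled points are called genes and the dashed line is the median of 12 pan-neuronal genes, -1.65; the points run from -3.23 for Scn4b to 0.83 for Cacna1f, and Cacna1d and Cacng7 lie close to 0.

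Among the sodium channel pores, the 4 main brain types fell together. Scn2a, which encodes a pore of axon initial segments, had 34.0, 62.4 and 81.1 CPM in 3d-SN011 replicates 1 to 3, against 318, 347 and 271 CPM in vehicle. The SN011 libraries held 228, 304 and 197 CPM, and the sham libraries 339, 363 and 346 CPM. The 3d-SN011 libraries were thus below all 9 others, and the fold change from vehicle was -2.40 ± 0.27 (adjusted p = 1.95e-05, edgeR quasi-likelihood test). Scn3a, best known as an embryonic pore, fell most in this subfamily. It had 11.2, 30.7 and 30.3 CPM in 3d-SN011, 91.1, 130 and 83.4 CPM in SN011, 132, 155 and 115 CPM in vehicle, and 130.3, 129 and 131 CPM in sham. Its fold change from vehicle was -2.48 ± 0.31 (adjusted p = 3.43e-05, edgeR). Scn1a, the pore that dominates in many interneurons, fell by 2.29 on the log2 scale. Scn8a, the pore of mature nodes and initial segments, fell by 2.06. Scn9a, the pore of peripheral sensory neurons, was scarce and was not called, at 4.68 ± 3.19 CPM in 3d-SN011 and 8.62 ± 1.34 CPM in vehicle (SD, n = 3). Without 3d-SN011 replicate 3 it fell, at a log2 fold change of -1.57 (adjusted p = 0.000648, edgeR quasi-likelihood test). Without 3d-SN011 replicate 1 its log2 fold change was -0.53.

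The sodium channel β genes held the largest fall. Scn4b, whose product supplies the blocking particle of resurgent sodium current, had 35.4, 219 and 340.4 CPM in 3d-SN011 replicates 1 to 3. The SN011 libraries held 1745, 1830 and 1041 CPM, the vehicle libraries 1933, 1729 and 1930 CPM, and the sham libraries 2024, 1927 and 1822 CPM. Every 3d-SN011 value was below every other value, replicate 1 lay furthest down, and SN011 replicate 3 was the lowest of the other 9. The log2 fold change from vehicle was -3.23 ± 0.57 (adjusted p = 0.000382, edgeR), a level 9.4-fold lower, and it lay between -3.87 without 3d-SN011 replicate 3 and -2.74 without replicate 1. Scn2b, a β subunit linked to the pore by a disulfide bond as Scn4b is, fell by 2.72 ± 0.26 (adjusted p = 1.37e-05, edgeR), to 38.9, 85.8 and 68.3 CPM in 3d-SN011 against 448, 388 and 434 CPM in vehicle. Scn3b, a noncovalently bound β subunit, fell by 1.92.

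**Figure D2:**
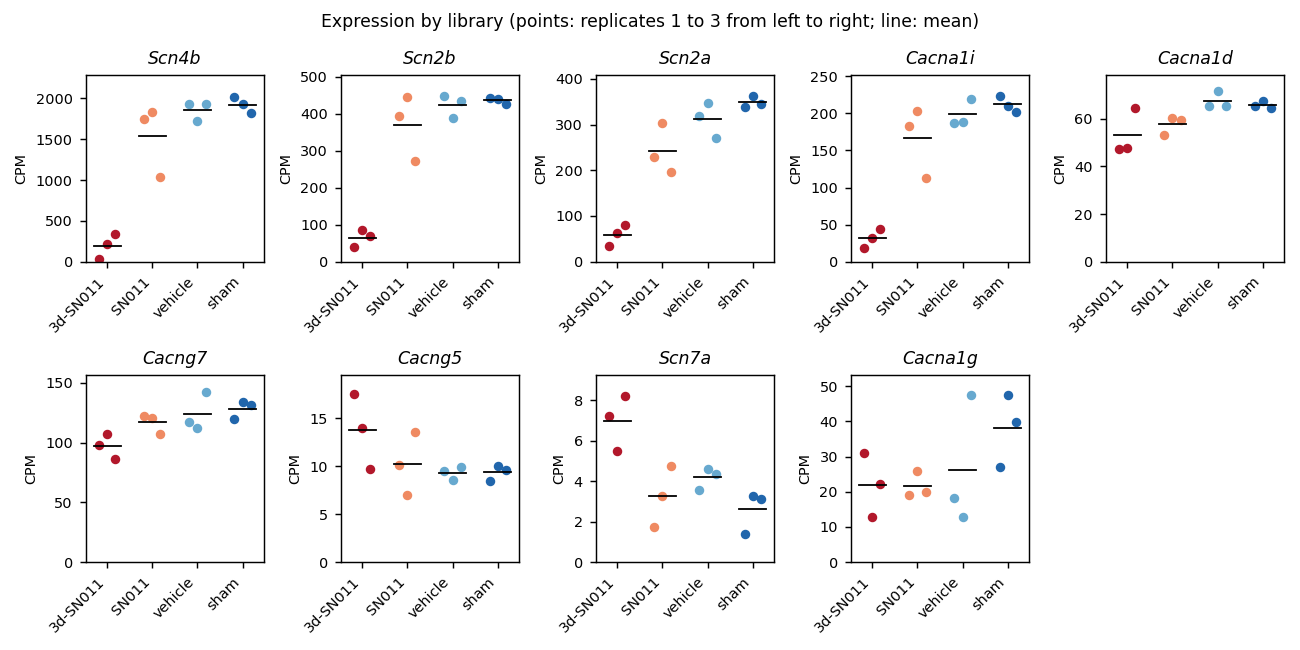
CPM of 9 channel genes in each library, with 3d-SN011, SN011, vehicle and sham from left to right, replicates 1 to 3 as points and the group mean as a line. Scn4b, Scn2b, Scn2a and Cacna1i are lower in all 3 3d-SN011 libraries than in the other 9, Cacng5 overlaps between 3d-SN011 and vehicle, and Scn7a is highest in 3d-SN011.

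Among the calcium channel pores, 7 of 9 fell, and the T-type gene Cacna1i fell most. Cacna1i, which supports low-threshold bursts, had 18.4, 32.0 and 43.7 CPM in 3d-SN011, 183, 203 and 113 CPM in SN011, 188, 189 and 219.9 CPM in vehicle, and 223, 210.4 and 202 CPM in sham. All 3 3d-SN011 libraries were below the other 9, with a log2 fold change from vehicle of -2.66 ± 0.28 (adjusted p = 1.63e-05, edgeR). Cacna1h, a second T-type gene and the α1 gene with the highest mean level per kb over all libraries, had 37.2, 50.4 and 105 CPM in 3d-SN011, 235, 242 and 141 CPM in SN011, 239, 232 and 227 CPM in vehicle, and 258, 221 and 222 CPM in sham. It fell by 1.86 ± 0.31 from vehicle (adjusted p = 0.000297, edgeR), again without overlap. Before division by exon length Cacna1e was higher, at a mean of 513 CPM in vehicle against 232.5 CPM for Cacna1h. The exon lengths used were 25228 bases for Cacna1e and 9763 for Cacna1h. The R-type gene Cacna1e fell by 2.08, the L-type gene Cacna1c by 1.92, the N-type gene Cacna1b by 1.62 and the P/Q-type gene Cacna1a by 1.15. The N-type and P/Q-type pores are those that trigger transmitter release at most terminals.

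Cacna1d, the other L-type gene of neurons, differed little. It had 47.5, 47.7 and 64.6 CPM in 3d-SN011 against 65.5, 71.5 and 65.3 CPM in vehicle. The highest 3d-SN011 value and the lowest vehicle value almost met. Its log2 fold change of -0.34 ± 0.12 was called (adjusted p = 0.0318, edgeR), but the call was lost without 3d-SN011 replicate 1 or 2 or vehicle replicate 1 or 2, with no filter on low counts, and with the 6 libraries alone. With offsets for GC content and transcript length the fold change was 0.067. Of its exon bases 4.67% lie opposite exons of Chdh, and without a known strand setting reads from the pair cannot be told apart there. Cacna1g, the third T-type gene, varied within groups, least in SN011. It had 31.1, 12.8 and 22.1 CPM in 3d-SN011, 19.0, 25.9 and 19.9 CPM in SN011, 18.2, 12.8 and 47.6 CPM in vehicle, and 26.9, 47.5 and 39.9 CPM in sham. A list of 8 cortical projection neuron genes, as a median log2 difference from the sham mean, stood at -0.08, -1.46 and -0.74 in the same 3d-SN011 libraries. It stood at -0.72, -0.28 and -1.18 in SN011, at -0.97, -1.28 and 0.41 in vehicle and at -0.70, 0.49 and 0.37 in sham. The part of this list in the Cacna1g values was not tested. Cacna1g was not called (-0.25 ± 0.43, adjusted p = 0.632, edgeR) and its sign turned without vehicle replicate 3 (0.50) or 3d-SN011 replicate 2 (0.022). Cacna1f, the retinal L-type gene, averaged 0.690 CPM in 3d-SN011 and 0.385 CPM in vehicle and was not called (adjusted p = 0.368, edgeR). Without vehicle replicate 3, which held 0.901 CPM, Cacna1f was called higher (2.36 ± 0.85, adjusted p = 0.0366, edgeR). Vehicle replicates 1 and 2, left in that fit, held only 0.125 and 0.130 CPM. Of the 4 libraries in which Cacna1f reached the count minimum, 2 were 3d-SN011, 1 was SN011, 1 was vehicle and 0 were sham. Without the 3d-SN011 libraries Cacna1f would not have been included, so no rise is concluded from this call.

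The α2δ genes encode extracellular subunits that carry calcium channels to the membrane, among them the binding sites of gabapentin. Cacna2d3 both had the highest mean level per kb and fell most, with 14.1, 56.4 and 63.2 CPM in 3d-SN011, 246, 254 and 165 CPM in SN011, 294, 311 and 248 CPM in vehicle, and 283, 277 and 278 CPM in sham. Its log2 fold change from vehicle was -2.67 ± 0.40 (adjusted p = 0.000126, edgeR), with the 3d-SN011 libraries below all others. Cacna2d2 and Cacna2d1, whose products bind gabapentin, fell by 1.86 and 1.74. Cacna2d4, a subunit known from the retina, averaged 4.90 ± 1.23 CPM in 3d-SN011 and 3.66 ± 1.10 CPM in vehicle and was not called (adjusted p = 0.233, edgeR).

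The intracellular calcium channel β genes, whose products hold the pore at the membrane, all fell. Cacnb1, first known from skeletal muscle, had the highest mean level per kb, with 39.4, 49.8 and 71.7 CPM in 3d-SN011, 207, 226 and 143 CPM in SN011, 204, 196 and 242 CPM in vehicle, and 218, 209 and 196 CPM in sham. It fell by 2.00 ± 0.22 (adjusted p = 1.85e-05, edgeR). Cacnb4, the gene mutated in the ataxic lethargic mouse, fell most in this subfamily, with 30.9, 58.2 and 81.1 CPM in 3d-SN011, 202, 264 and 168 CPM in SN011, 264, 297 and 239.7 CPM in vehicle, and 261, 289 and 267 CPM in sham (-2.23 ± 0.28 from vehicle, adjusted p = 3.64e-05, edgeR). In both genes the 3d-SN011 libraries lay below the other 9. Of the Cacnb4 exon bases 16.0% lie opposite A430018G15Rik, an antisense transcript with 31 counts over all libraries. Cacnb2 fell by 1.83 and Cacnb3 by 1.23.

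The γ family named after the muscle subunit Cacng1 consists mostly of AMPA receptor auxiliary subunits. Among the type I members, Cacng3 fell most, with 8.49, 21.5 and 26.1 CPM in 3d-SN011, 109.9, 133 and 72.9 CPM in SN011, 133, 136 and 114 CPM in vehicle, and 148, 144 and 144 CPM in sham (-2.77 ± 0.33 from vehicle, adjusted p = 2.6e-05, edgeR). Cacng4 had 61.7, 92.9 and 58.0 CPM in 3d-SN011, 236, 236 and 163 CPM in SN011, 269, 274 and 231 CPM in vehicle, and 266, 236 and 239 CPM in sham (-1.86 ± 0.19, adjusted p = 1.6e-05, edgeR). Neither gene overlapped between 3d-SN011 and any other group. Cacng2, which encodes stargazin, fell by 2.20 and Cacng8 by 1.18.

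The type II members Cacng7 and Cacng5 differed less. Cacng7 had 97.9, 107 and 86.0 CPM in 3d-SN011 and 117, 112 and 142 CPM in vehicle, without overlap. Its log2 fold change was -0.35 ± 0.12 (adjusted p = 0.0257, edgeR), a call lost without 3d-SN011 replicate 3 or vehicle replicate 3, with no filter on low counts, and with the 6 libraries alone. Cacng5 had 17.6, 13.9 and 9.70 CPM in 3d-SN011 and 9.49, 8.52 and 9.91 CPM in vehicle. It was not called (0.56 ± 0.25, adjusted p = 0.0734, edgeR), and was called higher without 3d-SN011 replicate 3 (0.76 ± 0.24, adjusted p = 0.0161). Without 3d-SN011 replicate 1 its log2 fold change was 0.35. The muscle gene Cacng1, at 0 CPM in 3d-SN011 replicate 1 and at most 2.51 CPM in any library, fell by 2.34 ± 0.68 (adjusted p = 0.00999, edgeR). Its log2 fold change was -3.71 without 3d-SN011 replicate 3 and -1.76 without 3d-SN011 replicate 1.

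Scn7a was the one channel gene with all 3 3d-SN011 libraries above the other 9, a pattern shown by 21.4% of all genes tested. It encodes an atypical sodium channel that senses extracellular sodium and is known from glia of the organs around the brain ventricles. It had 7.22, 5.49 and 8.24 CPM in 3d-SN011, 1.73, 3.28 and 4.77 CPM in SN011, 3.56, 4.62 and 4.38 CPM in vehicle, and 1.40, 3.27 and 3.14 CPM in sham. Scn7a rose relative to sham (1.42 ± 0.37, adjusted p = 0.00573, edgeR) and relative to SN011 (1.09 ± 0.37, adjusted p = 0.0265), and was not called relative to vehicle (0.74 ± 0.36, adjusted p = 0.0990). The call against SN011 was lost without 3d-SN011 replicate 1 or 3, without SN011 replicate 1 or 2, and with the 6 libraries alone.

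**Figure D3:**
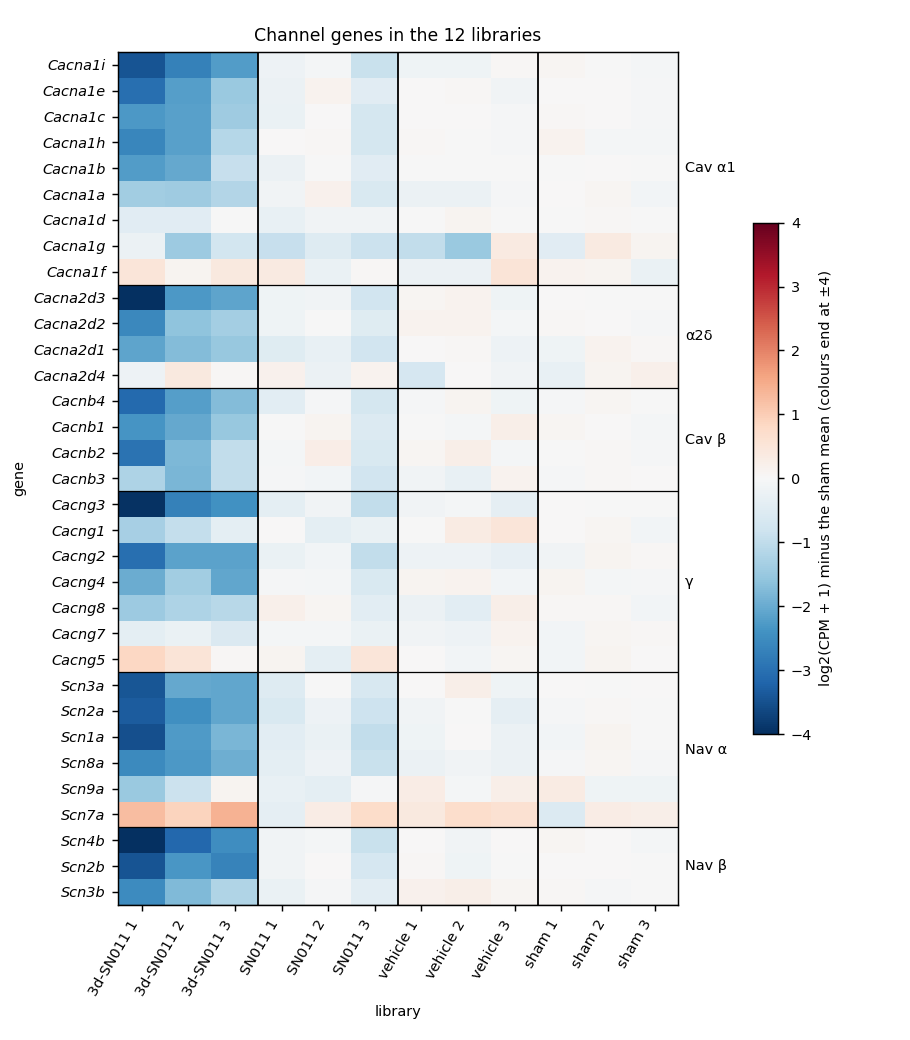
Log2(CPM + 1) of 33 channel genes minus the sham mean of each in the 12 libraries, with 3d-SN011, SN011, vehicle and sham from left to right and the subfamilies from top to bottom; colours end at 4 in either direction. The 3d-SN011 columns are blue for most genes and palest for replicate 3, SN011 replicate 3 is pale blue, and Scn7a is red in all 3 3d-SN011 libraries.

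Several channel genes are genomic neighbours, and neighbours did not always move alike. On GRCm38, Scn2b (chr9:45117782-45130070, plus strand) and Scn4b (chr9:45138395-45154152, plus strand) are 8.3 kb apart, and of the sodium channel genes Scn4b had the steepest fall and Scn2b the next steepest. On chromosome 2, Scn3a, Scn2a, Scn1a, Scn9a and Scn7a follow each other: the first 3 fell by 2.29 to 2.48, Scn9a was not called at -0.88, and Scn7a lay at 0.74. On chromosome 11, Cacng1, Cacng4 and Cacng5 are neighbours with log2 fold changes of -2.34, -1.86 and 0.56. On chromosome 7, Cacng7 and Cacng8 are 22.5 kb apart, at -0.35 and -1.18.

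The promoters of the neighbouring pair with the steepest falls, of Cacng7 with its small fall, and of Scn7a are shown as examples of the starts behind these different values. Each runs from 250 bases before to 50 after the RefSeq start on GRCm38.p6, 5′ to 3′ on the gene's strand, with a GC box (GGGCGG) or a CCAAT box (CCAAT), on either strand, in capitals. The windows are chr9:45138374-45138673 (plus) for Scn4b, chr9:45117626-45117925 (plus) for Scn2b, chr7:3332575-3332874 (plus) for Cacng7 and chr2:66784861-66785160 (minus) for Scn7a.
Scn4b: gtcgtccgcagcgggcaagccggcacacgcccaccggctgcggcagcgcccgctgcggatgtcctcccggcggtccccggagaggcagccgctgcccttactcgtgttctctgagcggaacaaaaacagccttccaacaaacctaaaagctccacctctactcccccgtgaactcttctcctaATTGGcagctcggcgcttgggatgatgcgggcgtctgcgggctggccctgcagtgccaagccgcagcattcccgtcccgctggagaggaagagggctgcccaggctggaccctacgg
Scn2b: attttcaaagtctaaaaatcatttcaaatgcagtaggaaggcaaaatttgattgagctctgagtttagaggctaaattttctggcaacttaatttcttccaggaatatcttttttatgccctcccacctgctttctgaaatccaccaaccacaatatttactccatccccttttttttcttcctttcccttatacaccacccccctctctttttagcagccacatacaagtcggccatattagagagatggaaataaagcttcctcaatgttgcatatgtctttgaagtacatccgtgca
Cacng7: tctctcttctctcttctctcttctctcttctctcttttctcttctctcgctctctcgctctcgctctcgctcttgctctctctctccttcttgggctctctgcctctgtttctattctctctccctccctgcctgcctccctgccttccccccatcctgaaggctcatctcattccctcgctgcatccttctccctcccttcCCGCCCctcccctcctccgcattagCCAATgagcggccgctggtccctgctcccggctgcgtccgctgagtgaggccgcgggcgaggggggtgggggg
Scn7a: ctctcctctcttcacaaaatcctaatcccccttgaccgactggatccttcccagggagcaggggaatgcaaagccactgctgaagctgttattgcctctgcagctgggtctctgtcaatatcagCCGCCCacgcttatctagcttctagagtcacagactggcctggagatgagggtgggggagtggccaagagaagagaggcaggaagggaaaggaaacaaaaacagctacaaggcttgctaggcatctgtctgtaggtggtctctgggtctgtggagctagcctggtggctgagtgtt
Although Scn4b and Scn2b fell together, their RefSeq windows differed in base content: 26 CG pairs and 66.3% G or C at Scn4b, and 2 CG pairs and 38.3% at Scn2b. The GENCODE starts of Scn4b (chr9:45138395) and Scn2b (chr9:45117782) lie inside these windows, before the RefSeq starts. By GENCODE, part of the bases shown before the RefSeq start of Scn4b and Scn2b is thus within the gene. The GENCODE start of Cacng7 (chr7:3332955) lies past the end of its window, so by GENCODE all bases shown are before the gene. That of Scn7a (chr2:66784914) lies inside its window. Cacng7 held 15 CG pairs and Scn7a 3. RefSeq had 36 promoters for 25 of the 35 channel genes. The GC box was in 41.7% of them and in 35.7% of all 32851 promoters, and the CCAAT box in 27.8% and 37.4%. The TATA box (TATAAA) was in 5.56% and 13.6%. The letters CAGCACC, part of the site of the repressor REST, were in 0 of the 36 and in 7.14% of all promoters, and the cyclic AMP response element (TGACGTCA) in 0 and in 1.79%. No motif's letters hold another's, both strands were searched, and a match or its absence says nothing of a factor's binding.

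Because the falls were unequal, the make-up of the subfamilies differed between the groups, given here per kb of exon and as a description. In the γ family Cacng7 led in the 3 3d-SN011 libraries and Cacng4 in the other 9. Cacng7 took 46.0% ± 4.44 of that family's level in 3d-SN011 and 23.2% ± 2.73 in vehicle. Among the calcium channel β genes Cacnb3 led in 3d-SN011, at 37.6% to 57.4%, and Cacnb1 in every other library. Cacna1d took 12.3% ± 1.73 of the α1 level in 3d-SN011 and 4.81% ± 0.34 in vehicle, and Scn7a 6.76% ± 2.87 and 0.833% ± 0.121 of the sodium channel α level. Cacna2d3 led the α2δ genes in every library but 3d-SN011 replicate 1, where Cacna2d1 did. The sodium channel α subfamily kept the same leaders: Scn2a or Scn8a was first and second in every library. Scn4b averaged 39.8 ± 30.8 CPM per kb in 3d-SN011 and 374 ± 23.4 CPM per kb in vehicle (SD, n = 3), where it was the highest of the channel genes and Scn2b followed at 90.8 ± 6.75 CPM per kb.

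**Figure D4:**
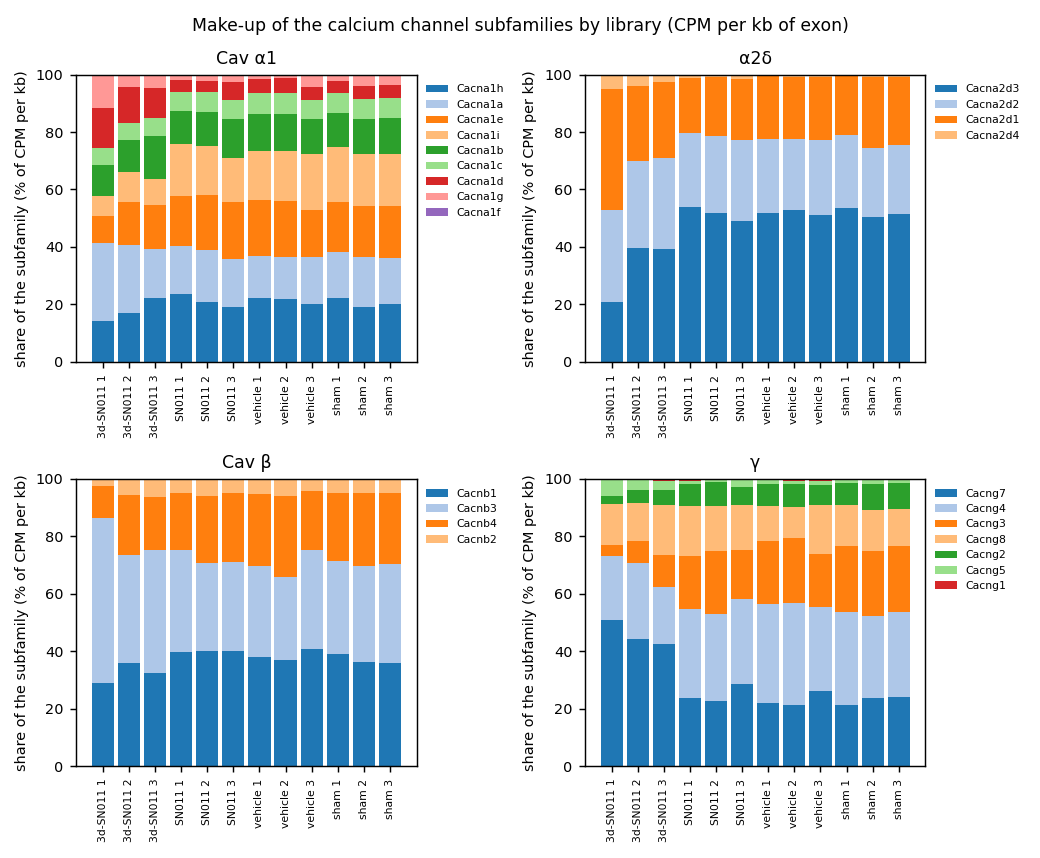
Share of each calcium channel gene in the summed level (CPM per kb of exon) of its subfamily, 1 bar per library, with 3d-SN011, SN011, vehicle and sham from left to right. The 9 bars of SN011, vehicle and sham look alike in each panel, while in the 3d-SN011 bars Cacng7 (42.6% to 51.0%) and Cacnb3 (37.6% to 57.4%) take the largest shares of their subfamilies.

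The libraries of a group were not alike. In 3d-SN011, replicate 1 was the lowest of the 3 for 27 of the 35 channel genes and replicate 3 the highest for 27, against 33.9% and 39.6% of all genes tested. The median of the channel genes, as the log2 difference from the sham mean, was -2.31, -1.80 and -1.21 in 3d-SN011 replicates 1 to 3. The medians of the pan-neuronal markers in the same libraries were -2.13, -1.80 and -1.38, and those of the projection neuron markers -4.32, -2.44 and -2.11. All 3 lists therefore put the replicates in the same order. All 3 3d-SN011 libraries lay below the other 9 for 26 channel genes, 74.3% of them and 22.8% of all genes tested. Without 3d-SN011 replicate 1 the median fold change of the channel genes from vehicle was -1.59, and without replicate 3 it was -2.25.

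The other comparisons of the 3d-SN011 group, which share its libraries with the one above, gave similar counts. Against sham, 26 channel genes fell and 1, Scn7a, rose by edgeR's quasi-likelihood test, where 27.9% of all genes fell and 29.8% rose. The median was -1.79. Against SN011, 24 fell and 1, Scn7a, rose, where 22.9% of all genes fell and 23.6% rose. The median was -1.58. Scn4b lay at -3.28 ± 0.57 against sham and at -2.96 ± 0.56 against SN011. Cacna1d, called against vehicle, was at adjusted p = 0.0501 against sham (edgeR quasi-likelihood test) and 0.480 against SN011, and Cacng7 was called against sham (-0.41 ± 0.12, adjusted p = 0.0128) and not against SN011 (adjusted p = 0.0886).

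The comparison of SN011 with vehicle, both after occlusion, asks what the drug did in libraries without the 3d prefix. By edgeR's quasi-likelihood test 0 of 35 channel genes were called, where 0.0162% of all genes were. DESeq2 tested 34 of the channel genes and called 0, where it called 17 genes lower and 428 higher of 16851 tested. Over all genes the edgeR count was also larger with no filter on low counts (14 lower and 587 higher) and without SN011 replicate 2 (7 lower and 506 higher), and 0 of 35 channel genes were called in either. Of the 35, only Cacna2d1 reached an unadjusted p under 0.05 by edgeR, where 2050 of the 18537 genes tested did. Cacna2d1 had 126, 144 and 103 CPM in SN011 against 177, 181 and 152 CPM in vehicle, without overlap. Its log2 fold change was -0.45 ± 0.16 (adjusted p = 0.319, edgeR). The median of the 35 was -0.26, and 28 of the 35 had a mean below that of vehicle, against 51.2% of all genes. SN011 replicate 3 was the lowest of the 9 libraries of SN011, vehicle and sham for 24 of the 35, against 25.2% of all genes. Its medians were -0.60 for the channel genes, -0.69 for the pan-neuronal markers, -0.77 for the projection neuron markers and 1.92 for the microglia and macrophage markers. Without this library the median fold change from vehicle was -0.10, and 24 of 35 means lay below vehicle, against 50% of all genes. Against sham, SN011 also had 0 of 35 called by edgeR (0.113% of all genes) and 0 of 34 by DESeq2 (27 genes lower and 598 higher of 18132). By edgeR, 2 of the 35 reached an unadjusted p under 0.05, Cacna2d1 and Scn8a, where 2368 of the 18537 genes tested did. The median of the 35 was -0.24.

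The comparison of vehicle with sham, which asks what occlusion did without the drug, resolved no difference in the channel genes. It had 0 of 35 called by edgeR's quasi-likelihood test and by DESeq2, 0 at an unadjusted p under 0.05, and a median of -0.03, where 0% of all genes were called by edgeR, 3 were by DESeq2, and 467 reached an unadjusted p under 0.05 by edgeR. Scn4b averaged 1864 ± 117 CPM in vehicle and 1925 ± 101 CPM in sham, Scn2a 312 ± 38.5 and 349 ± 11.96 CPM, and Cacna1e 513 ± 35.6 and 521 ± 14.2 CPM (SD, n = 3). The log2 fold changes ran from -0.54 for Cacna1g to 0.68 for Scn7a.

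The proteins that anchor, modulate or work beside these channels were followed as a list of 50 partner genes, of which 49 were tested. In 3d-SN011 against vehicle, 39 fell and 3 rose by edgeR's quasi-likelihood test, where 28.2% of all genes tested fell and 28.9% rose, with a median of -1.61. The smallest adjusted p, 1.22e-05 (edgeR), was shared by 4 genes. Ank3, whose product ankyrin-G anchors sodium channels at the initial segment, stood at 183 ± 26.1 CPM in 3d-SN011 and 700.0 ± 57.7 CPM in vehicle. Fgf13, a cytoplasmic modulator of sodium channels, fell by 1.67, Unc13a, which primes vesicles beside presynaptic calcium channels, by 2.44, and Unc80, a subunit of the sodium leak channel complex, by 2.10. The 3 that rose were Camk2d (1.22 ± 0.15), a calmodulin-dependent kinase, and Gem (2.56 ± 0.41) and Rrad (2.34 ± 0.59), small GTPases that inhibit calcium channels through their β subunits. Both GTPase genes were low: Gem averaged 11.4 ± 3.84 CPM in 3d-SN011 and 1.92 ± 0.17 CPM in vehicle. Rrad averaged 3.37 ± 0.92 CPM in 3d-SN011 and 0.66 ± 0.32 CPM in vehicle, where counting error limits the precision.

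Of 40 genes for calcium release, removal and buffering, 39 were tested, 23 fell and 11 rose in 3d-SN011 against vehicle, with a median of -0.72. Over all genes tested 28.2% fell and 28.9% rose, so the share of the list that rose was close to that of all genes. The plasma membrane calcium pump Atp2b2 fell most clearly, to 155 ± 44.9 CPM in 3d-SN011 against 958 ± 36.7 CPM in vehicle (-2.63 ± 0.24, adjusted p = 1.23e-05, edgeR). The pump Atp2b3 fell by 2.47 and Itpr1, a calcium release channel of the endoplasmic reticulum, fell by 2.74. Those that rose included Orai1, the pore of store-operated calcium entry, at 30.8 ± 5.65 CPM in 3d-SN011 and 7.06 ± 0.68 CPM in vehicle (2.12 ± 0.23, adjusted p = 1.82e-05, edgeR), and Slc8b1, the mitochondrial sodium-calcium exchanger (2.02 ± 0.24).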

How the data were processed

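Total RNA was isolated with Trizol and made into polyA+ libraries for paired-end Illumina sequencing, per the labels' protocols. The submitters' processing notes name HISAT2, featureCounts and the build mm10. Not given in the sources used here were versions, annotation and strandedness. The deposited values are raw read counts, whole numbers for each Ensembl gene, and no sign of normalization by the authors was found in them. All 12 tables list the same 54532 genes, with 0 entries that name no gene. Symbols, biotypes, exon lengths and positions come from GENCODE M21 (GRCm38, release 21), which matched 54409 IDs, and promoters from RefSeq (GRCm38.p6).

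The analysis used edgeR 4.0.16 in R 4.3.3. Genes passed filterByExpr (by group, minimum count 10), libraries were scaled by TMM, and 1 quasi-likelihood fit took all 12 libraries with group as its only term, leaving 8 residual degrees of freedom. Each of 6 pairs of groups was tested, with Benjamini-Hochberg adjustment over 18537 genes. Standard errors were obtained as the fold change over the square root of F. The test was tested on simulated data first. The alternatives were RLE scaling, DESeq2 1.42.0, no filter, only the 6 libraries of a comparison, a replicate block, and each replicate left out in turn. Offsets for GC content and transcript length, and a model of 9 libraries that omits the 3d arm, were chosen after seeing the data.

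The channel genes and the lists of partners, calcium handling and cell type markers were chosen with earlier results of these data known. In each subfamily, values of every library are given for the gene with the highest mean CPM per kb and for the called gene with the largest fall or rise in 3d-SN011 against vehicle, and of each list the called genes with the smallest adjusted p in each direction are named. Scn2b, Cacna1d, Cacna1g, Cacng7, Cacng5, Scn7a and Cacna2d1 fall outside this rule and were picked for display once their values were known. Values of 2 of the channel genes are not reported here, though counts and medians over the channel genes hold them. Library medians use log2(CPM + 1). For genes under about 1 CPM, counting error limits the precision.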

Additional observations from a re-analysis of the deposited data

How the results depend on the processing

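The counts of channel genes that fell against vehicle, sham and SN011 stayed within 1.5 times the reported 27, 26 and 24 under all alternatives run, at 25 to 28, 25 to 29 and 24 to 28, and the counts called in the 3 comparisons without the 3d-SN011 group remained 0. Only the counts that rose moved. Against vehicle, 1 gene rose with the 6 libraries alone and 1 with offsets for GC content and transcript length (Scn7a in both), and leaving out a replicate gave 0 to 1 (Cacng5 without 3d-SN011 replicate 3, Cacna1f without vehicle replicate 3). Against sham the range was 1 to 2. Against SN011 it was 0 with the 6 libraries alone and 0 to 2 when a replicate was left out. The causes were not tested. Signs turned for 2 of the genes reported. Cacna1d turned under the offsets (0.067 against vehicle, 0.16 against sham, 0.22 against SN011). Cacna1g ran from -0.59 to 0.50 against vehicle when a replicate was left out. Its sign turned without 3d-SN011 replicate 2 (0.022) and without vehicle replicate 3 (0.50). The channel genes' transcripts are long, with a median of 6622 bases against 3065 over all genes, and under the offsets their median against vehicle was -1.46. With the replicate number as a block, the counts that fell were 27, 26 and 24, and no count of calls moved. The labels do not say that a number marks a shared animal or day, and same-numbered libraries did not deviate together in 3d-SN011 and vehicle (correlations of -0.107, 0.143 and 0.021); not every library correlated best with its own number.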
